A study of Arabidopsis thaliana with 9 samples.

Results

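In cultured Arabidopsis cells, 59 of 22746 probe sets gave a lower signal under high light than under both growth light and darkness, with the dark signal near the growth light level. The cells were a suspension culture of Arabidopsis thaliana, kept at 24 °C in continuous light of 50 microE/m2/s. Of 3 groups with 3 arrays each, the control remained in that light, another was darkened for 1 h, and the last was given 1800 microE/m2/s over 30 min, called high light here. RNA was hybridised to Affymetrix ATH1 arrays, on which a probe set is a group of short oligonucleotides that measures a transcript, and the values are log2 signals. The labels call the replicates biological and do not say whether they came from separate cultures. They give no genotype or name for the cell line, and the cells share growth in light before every treatment.

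The members were chosen on these same values. In a member, all 3 high light values lay below the 6 others, the control mean exceeded the high light mean by at least 0.5, and the dark mean lay within 0.3 of the control mean. The first of these conditions alone held in 2.22% of all probe sets. A set of symbols was left out by name, which removed 1 probe set, that of XERICO. All comparisons between the 3 groups were used in this choice, so the values below describe the members and are not a test of any light effect. Of the 59, 36 were annotated to 1 gene, 1 to several genes and 22 to none. Among the 36 genes, 33 are known in the gene table only by their locus number. What is said here of their protein families is textbook background.

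High light delivers more excitation than chloroplasts can use for photosynthesis, and plant cells respond with rapid changes in transcript levels. A transcript level can decline within minutes only where the existing molecules are degraded quickly, and transcripts for regulatory proteins are often short-lived. Some members encode parts of ubiquitin ligases, which attach ubiquitin to chosen proteins and so mark many of them for destruction by the proteasome. In RING-type ligases a zinc-binding domain recruits the ubiquitin-carrying enzyme, and F-box proteins are the interchangeable parts that bind the target in SCF ligases.

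Over the 59 members the high light minus control difference had a median of -0.71 and ran from -2.02 to -0.50, so the high light signal was between 24.7% and 70.6% of control. It was -1 or lower in 9 members, between -1 and -0.75 in 17, and above -0.75 in 33. The high light minus dark difference had a median of -0.59 (-1.72 to -0.24). The dark minus control difference, which shares the control arrays with the first, had a median of -0.17 (-0.30 to 0.12). Over all probe sets tested, the same 3 medians were -0.03, -0.04 and -0.00401. The arrays measure RNA from many cells together, so fewer cells of a type and less RNA per cell cannot be told apart. Of 13 marker genes for green, root hair, xylem, seed and dividing cells, 2 had a named probe set. PSAN, a photosystem I subunit of green cells, had signals of 8.49, 8.65 and 8.91 in control, 8.03, 8.03 and 8.40 in dark, and 7.97, 8.07 and 7.87 in high light. Its high light minus control difference was -0.71 (SE 0.14, limma adjusted p = 0.0835). The dark minus control difference of PSAN was -0.53, beyond the limit of 0.3 set for members. EXPA7, a root hair gene, had a difference of 0.10 (SE 0.09). Its signals were low, from 4.08 to 4.53 over the 9 arrays, where the lower quartile of the arrays was 4.05 to 4.12. The part of green cells or of their RNA in the members' values was not tested.

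**Figure D1:**
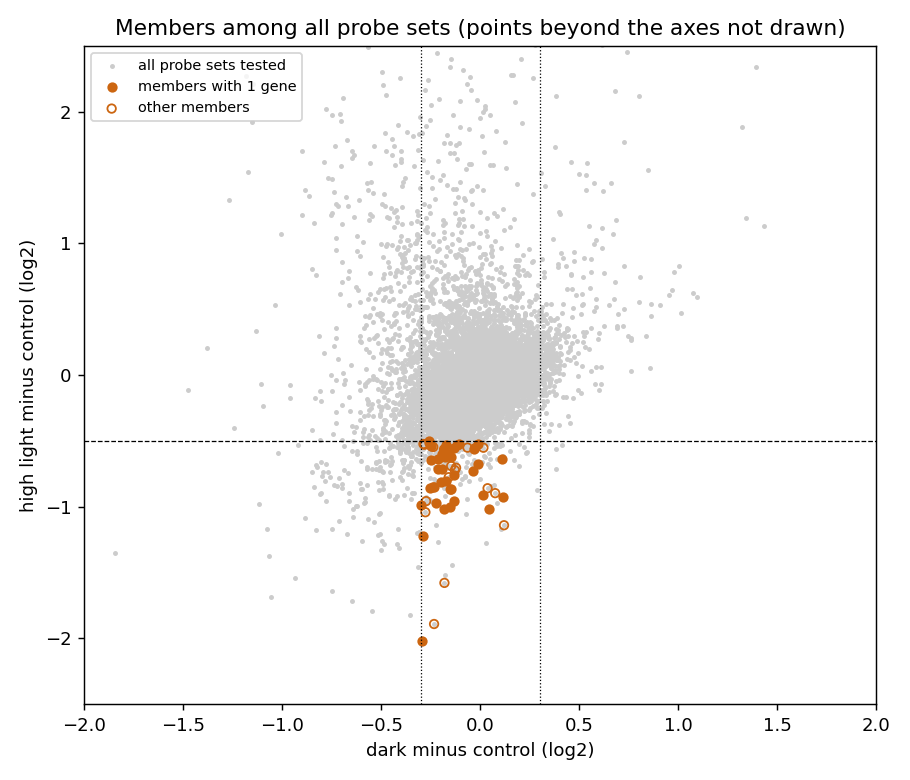
Mean log2 difference from control in darkness (horizontal axis) and in high light (vertical axis) for all probe sets tested (grey), with the 36 members with 1 gene (filled) and the 23 other members (open) in orange. The dashed line marks the limit of -0.5 and the dotted lines the limits of -0.3 and 0.3 that define the members, and the member farthest down is AT1G21050 at -2.02.

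The lowest high light value relative to control belonged to AT1G21050, a gene for a plant protein of the DUF617 family, whose best known relative in Arabidopsis acts in root bending toward moisture. Its signals were 10.10, 9.03 and 9.25 in control, 9.38, 8.85 and 9.26 in dark, and 8.41, 6.99 and 6.93 in high light, for replicates 1, 2 and 3. The high light arrays did not overlap the others, and replicate 1 lay between them and the other high light arrays. The difference from control was -2.02 (SE 0.42, n = 3 per group), which left 24.7% of the control signal.

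Among the genes for RING-type ligases, which were 3 of the 36, the difference ran from -1.22 to -0.53. AT1G49200 encodes a protein of the ATL family, membrane-anchored RING ligases found in plants. Its signals were 4.58, 4.92 and 5.71 in control, 4.41, 4.41 and 5.52 in dark, and 4.07, 3.79 and 3.69 in high light. Replicate 3 was highest in control and in dark, and the high light values lay around the lower quartile of the arrays (4.05 to 4.12), near the floor of the scale. The difference from control was -1.22 (SE 0.35).

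A further ATL gene, ATL8, had signals of 7.75, 7.78 and 8.20 in control, 7.85, 7.60 and 7.77 in dark, and 7.53, 6.86 and 6.91 in high light. The difference was -0.81 (SE 0.19), and high light replicate 1 lay only 0.07 below the lowest dark array. The annotation gives an ATL symbol to 3 genes with a probe set, ATL8 among them, and AT1G49200 is listed only by its locus. ATL5 and ATL63 had differences of -0.09 (SE 0.11) and -0.02 (SE 0.11). Their control means were low, at 4.65 and 3.87, and that of ATL63 lay below the lower quartile of the arrays, where a fall could hardly show. Limma, a linear model with a moderated error fitted over all probe sets, called 114 of the 22746 in high light against control. It called 0 of the 3 ATL genes. Of the 2 that were not members, 0 had an unadjusted p under 0.05, where 8.79% of all probe sets did in either direction.

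AT5G37930 belongs to the SINA-like RING proteins. It had signals of 7.24, 7.45 and 7.46 in control, 7.23, 7.18 and 7.40 in dark, and 6.81, 6.92 and 6.82 in high light. Its difference was small (-0.53, SE 0.09) but alike on the 3 high light arrays, whose SD was 0.06.

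Genes for F-box proteins made up 6 of the 36, with differences from -0.76 to -0.52 and a median of -0.58. SLY1 (SLEEPY1) is the F-box protein that binds DELLA repressors and leads to their breakdown when gibberellin is present. Its signals were 8.50, 8.19 and 8.03 in control, 8.41, 8.02 and 8.26 in dark, and 7.91, 7.62 and 7.61 in high light. The dark and control means were 8.23 and 8.24, and the high light mean was 0.52 below control (SE 0.15), at 69.6% of its signal.

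AT3G07870 had signals of 5.60, 5.45 and 5.29 in control, 5.15, 5.28 and 5.52 in dark, and 5.05, 4.41 and 4.61 in high light. Its difference of -0.76 (SE 0.17) was the widest of the F-box genes. AT2G17030, of a group of F-box proteins with a DUF295 domain, had group means (± SD, n = 3) of 5.73 ± 0.24 for control, 5.72 ± 0.17 for dark and 5.06 ± 0.36 for high light. AT3G12350 had means of 8.63 ± 0.17, 8.44 ± 0.15 and 8.03 ± 0.19 in the same order. In AT1G78750 and AT1G66310, which belong to the F-box proteins with leucine-rich repeats, the differences were -0.55 (SE 0.15) and -0.52 (SE 0.12). The F-box and RING groups were put together after the members were known, and the gene table gives no protein families, so the share of such genes among all probe sets was not counted.

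For SLY1, other genes of gibberellin signalling were set beside it, also chosen after the members were known. The hormone binds the receptors GID1A, GID1B and GID1C, and SPY and SEC encode sugar transferases that modify DELLA proteins. GID1B had signals from 8.19 to 9.07 in control and 6.89 to 7.98 in high light, and its dark arrays spread from 7.34 to 8.81. Its difference from control was -1.17 (SE 0.41) in high light and -0.42 in dark. GID1C had -0.55 (SE 0.15) in high light and -0.40 in dark, and both its dark mean and dark replicate 3 (4.75, below high light replicates 1 and 3) kept it outside the members. GID1A, SEC and SPY had differences of 0.05 (SE 0.24), -0.12 (SE 0.14) and 0.01 (SE 0.15). Of these 6 genes limma called 0 in high light against control, where it called 114 of all 22746 probe sets. Of the 5 that were not members, GID1B and GID1C had an unadjusted p under 0.05, against 8.79% of all probe sets in either direction.

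**Figure D2:**
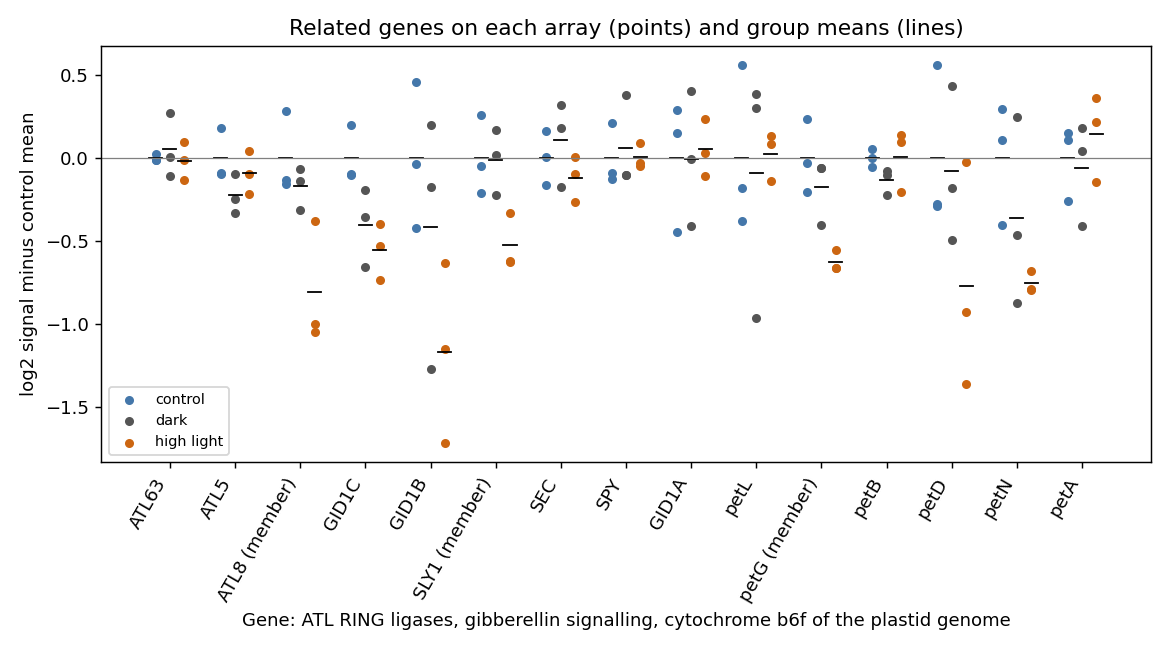
Log2 signal minus the control mean on each array (points) with group means (lines) for the ATL genes, the gibberellin signalling genes and the cytochrome b6f genes of the plastid genome. In ATL8, SLY1 and petG the high light points lie below all others, and in GID1B, GID1C and petN 1 dark array lies as low as the high light arrays.

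Members related to transcription numbered 4. They were grouped after the members were known, and the share of such genes among all probe sets was not counted. AT1G32700 encodes a PLATZ protein, a plant-specific zinc-binding family that binds DNA. Its signals were 8.08, 7.92 and 8.50 in control, 8.03, 8.15 and 7.78 in dark, and 7.61, 6.90 and 6.94 in high light. The difference was -1.01 (SE 0.22), with 49.5% of the control signal left. AT1G58110 encodes a basic leucine zipper (bZIP) protein, and its high light values were close together, with means (± SD, n = 3) of 6.87 ± 0.12 for control, 6.62 ± 0.32 for dark and 6.22 ± 0.05 for high light.

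AT5G14370, a gene for a protein with a CCT motif, the motif shared with the flowering regulator CONSTANS and clock proteins, had signals of 9.62, 9.65 and 9.70 in control and 9.46, 8.88 and 8.72 in high light. Its dark values were 9.64, 9.59 and 10.08, so its dark mean lay 0.11 above control. The high light difference was -0.64 (SE 0.20). AT5G65170 encodes a protein with a VQ motif, a family known to bind WRKY transcription factors. It had means (± SD, n = 3) of 5.08 ± 0.22 for control, 4.83 ± 0.05 for dark and 4.54 ± 0.16 for high light, so its dark mean lay nearly midway.

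AT1G06760 encodes a linker histone, which binds DNA between nucleosomes and compacts chromatin. Its signals were 10.67, 10.48 and 11.69 in control, 10.50, 10.96 and 10.95 in dark, and 10.42, 10.23 and 10.32 in high light. Control replicate 3 stood well above the other control arrays, and the difference of -0.62 (SE 0.29) was -0.25 without that array. AT4G17080, whose protein family is not described here, had 6.76, 6.37 and 6.31 in control, 6.27, 6.24 and 6.48 in dark, and 5.89, 5.44 and 5.11 in high light. That difference was -1.0 (SE 0.20), with 49.9% of the control signal left.

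AT1G52800 and AT1G52810 encode oxygenases of the large family that uses iron and 2-oxoglutarate, and they are the 1 pair of members that are next to each other in the order of protein-coding genes (RefSeq, TAIR10.1). AT1G52800 had signals of 7.52, 7.30 and 7.56 in control, 7.43, 7.22 and 7.34 in dark, and 7.12, 6.04 and 6.35 in high light. AT1G52810 had 4.73, 4.76 and 5.28 in control, 4.63, 4.61 and 4.95 in dark, and 4.24, 3.92 and 4.48 in high light. Their differences were -0.96 (SE 0.24) and -0.71 (SE 0.19). Both had their lowest value on high light replicate 2, while the highest was replicate 1 in the former and replicate 3 in the latter.

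Of the plastid proteins, petG is encoded in the plastid genome and is a small subunit of the cytochrome b6f complex, which carries electrons between the photosystems. It had signals of 7.15, 6.71 and 6.89 in control, 6.85, 6.86 and 6.51 in dark, and 6.25, 6.36 and 6.26 in high light. The difference was -0.62 (SE 0.13), and the high light SD of 0.06 was below that of control (0.22) and dark (0.20). Other plastid genes of the complex, chosen after the members were known, had varied values. petA, petB and petL had differences of 0.14 (SE 0.19), 0.01 (SE 0.10) and 0.03 (SE 0.37), while petD and petN had -0.77 (SE 0.38) and -0.75 (SE 0.27). In petD high light replicate 1 lay at the control level (6.21 against a control mean of 6.23), and in petN the dark mean lay 0.36 below control. The petD difference was -0.49 without control replicate 1 and -0.47 without high light replicate 3. Limma called 0 of these 6 genes in high light against control, where it called 114 of all 22746 probe sets. Of the 5 that were not members, petN had an unadjusted p under 0.05, against 8.79% of all probe sets in either direction. AT4G27700, a nuclear gene for a rhodanese-like protein, had a difference of -0.81 (SE 0.15), with means (± SD, n = 3) of 6.55 ± 0.31 for control, 6.36 ± 0.06 for dark and 5.75 ± 0.12 for high light.

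For proteins that are secreted or at the cell surface, 3 genes were members. This group was also formed after the members were known, without a count of such genes among all probe sets. AT3G15720, of the polygalacturonase family that cuts pectin in cell walls, had means (± SD, n = 3) of 8.71 ± 0.18 for control, 8.57 ± 0.07 for dark and 7.85 ± 0.47 for high light. High light replicate 1 was at 8.39, and replicates 2 and 3 were at 7.62 and 7.53. AT1G75800, a thaumatin-family gene, had a difference of -0.60 (SE 0.14), and AT1G72230, a gene for a copper-binding cupredoxin, had -0.50 (SE 0.13). In AT1G72230 dark minus control was -0.26 and high light minus dark -0.24, so its dark mean lay slightly nearer to high light.

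AT4G28240, of a wound-responsive protein family, differed from most members in its array order. Its signals were 7.13, 7.35 and 7.86 in control, 7.22, 7.18 and 8.27 in dark, and 6.31, 6.45 and 6.81 in high light. Replicate 3 was the highest array in each of the 3 groups, and high light replicate 1 was the lowest of all 9. The difference was -0.93 (SE 0.31), and the same-numbered differences behind that mean were -0.82, -0.90 and -1.06.

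AT3G11690 had the widest gap among the members. Its signals were 5.64, 5.79 and 5.99 in control, 5.64, 5.56 and 6.26 in dark, and 4.89, 4.90 and 4.89 in high light. The lowest other array stood 0.66 above the highest high light array, and the difference from control was -0.91 (SE 0.18).

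AT2G28870 had 5.79, 5.58 and 6.31 in control, 5.91, 5.94 and 5.97 in dark, and 5.35, 4.43 and 4.85 in high light. Its dark mean (5.94) was slightly above the control mean (5.89), and its high light difference was -1.02 (SE 0.24). AT3G14280 and AT1G27690 followed with differences of -0.99 (SE 0.23) and -0.97 (SE 0.18). For AT3G14280 control replicate 3 (6.72) stood well above control replicates 1 and 2 (5.78 and 5.79). AT4G14270, which encodes a protein with a motif that binds the poly(A)-binding protein, had a difference of -0.86 (SE 0.21).

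The remaining genes had smaller differences. AT1G65230, AT3G07310 and AT5G57340 had -0.85 (SE 0.23), -0.73 (SE 0.34) and -0.72 (SE 0.15), and without control replicate 3 the first and second had -0.56 and -0.47. AT5G66440 had -0.64 (SE 0.18) and AT3G08890 -0.56 (SE 0.16). AT1G80290, a glycosyltransferase gene, had -0.56 (SE 0.16), and -0.36 without high light replicate 3. AT1G21440, of an enzyme family that handles phosphoenolpyruvate-like substrates, had -0.53 (SE 0.15). For AT3G07310 the SD of the dark arrays (0.71) was about as large as the difference itself, since dark replicate 3 (8.62) lay above every control array.

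**Figure D3:**
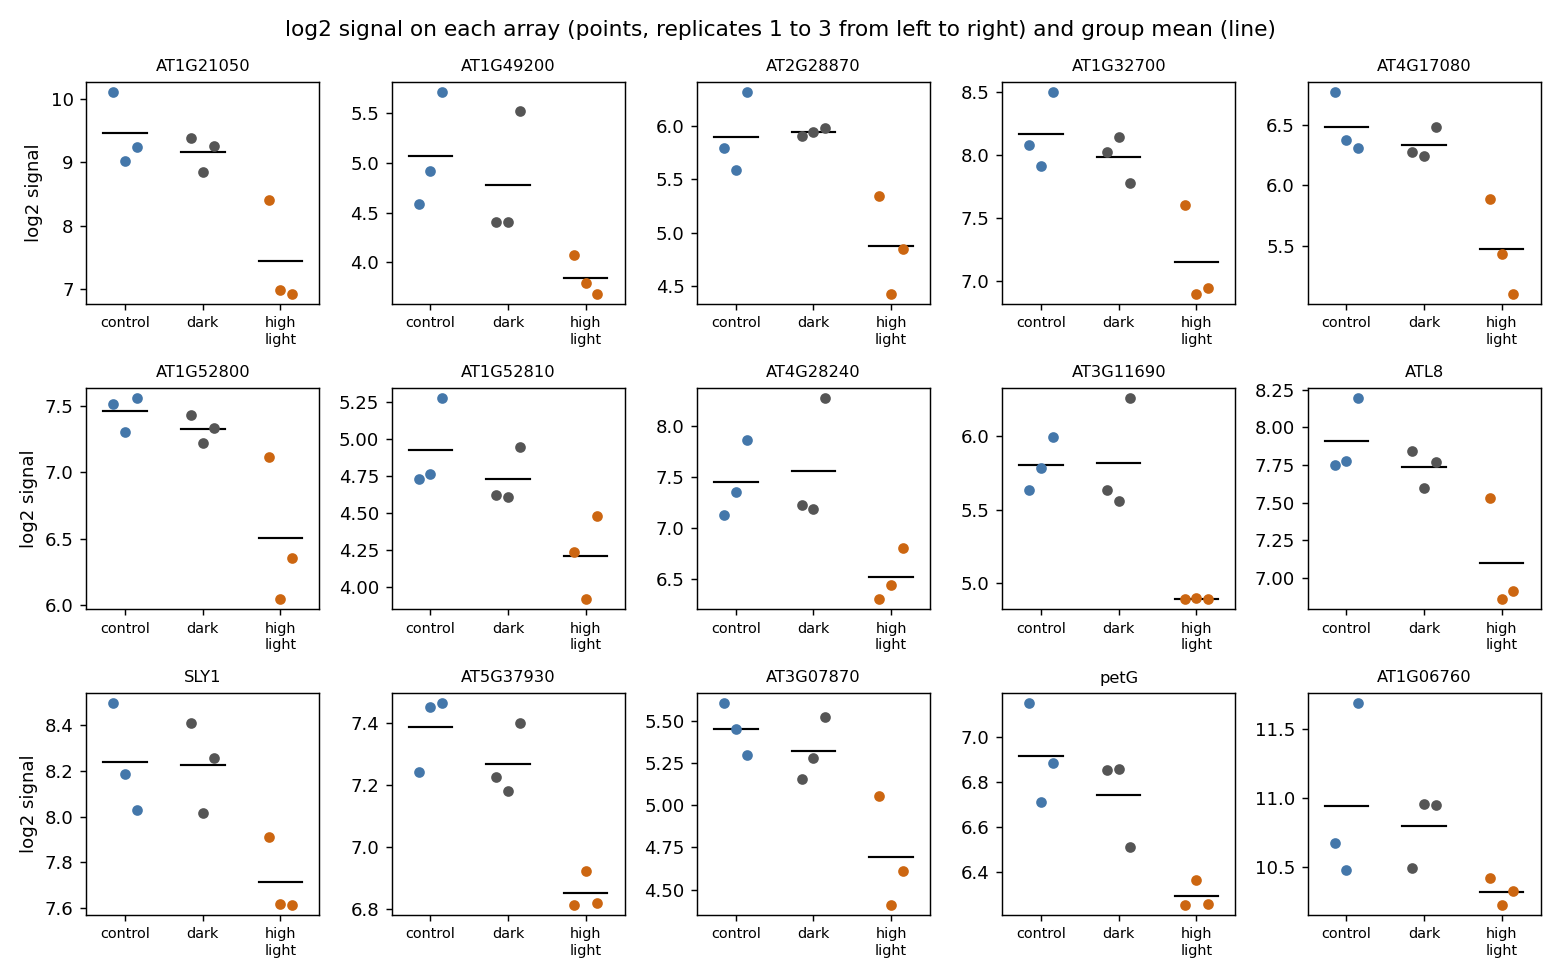
Log2 signal of 15 members on each array (points, replicates 1 to 3 from left to right) with the group mean (line). The 3 high light points lie below the 6 others in every panel by the choice of the members, and in AT1G21050, AT1G52800 and ATL8 replicate 1 lies above replicates 2 and 3.

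The members did not depart equally on the 3 high light arrays. High light replicate 1 was the highest of the 3 in 47 of 59 members, where that array was the highest in 42.0% of all probe sets. Its median difference from the control mean over the members was -0.53, against -0.78 for replicate 2 and -0.84 for replicate 3. It lay at least 0.5 below the control mean in 33 members, replicate 2 in 52 and replicate 3 in 55. The rule itself requires a mean fall of at least 0.5, and these shares over all probe sets were not counted. Replicate 2 was the highest in 7 members and replicate 3 in 5, against 29.5% and 28.5% of all probe sets. Replicate 1 was the lowest in 5 members, among them AT4G28240, petG and AT5G37930, and that share over all probe sets was not counted.

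High light replicate 1 also decided how many probe sets met the rule. Without that array 462 met it, 57 of them members, and without any other single array 58 to 79 did. In the 405 that were not members, replicate 1 had a median difference of -0.02 from the control mean, against -0.62 for the mean of replicates 2 and 3.

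The control and dark arrays also differed in level among themselves. Control replicate 3 was the highest control array in 40 of 59 members, against 37.3% of all probe sets, and dark replicate 3 the highest dark array in 34 members, against 35.0%. Over the members, the median distance from the control mean was -0.11, -0.12 and 0.19 for control replicates 1, 2 and 3, and -0.19, -0.24 and -0.08 for the dark ones. An index of RNA quality, the excess of 3 prime over 5 prime signal of control transcripts (log2), stood at 0.72, 0.99 and 1.1 on the control arrays, 0.79, 0.98 and 1.29 on the dark arrays, and 0.99, 0.96 and 1.06 on the high light arrays. Its part in the members' values was not tested. Within same-numbered arrays, the median high light minus control difference over the members was -0.44, -0.76 and -1.04 for numbers 1, 2 and 3. It was below 0 in all 59 members for each number, which the choice of the members requires.

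**Figure D4:**
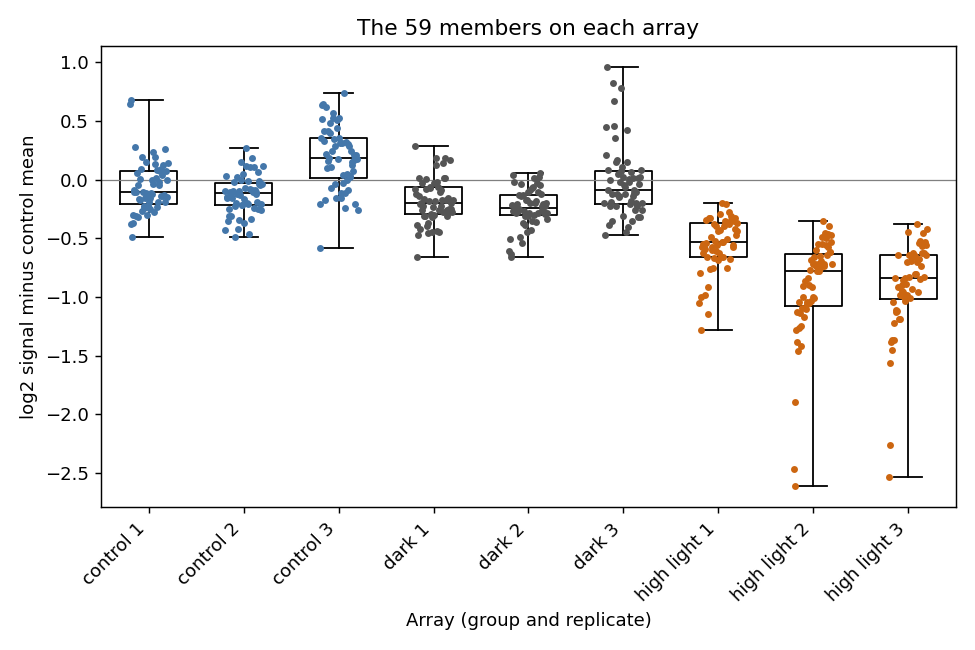
Log2 signal minus the control mean for the 59 members on each array (points), with boxes for the quartiles, lines for the medians and whiskers to the lowest and highest member. The medians of the high light arrays lie at -0.53, -0.78 and -0.84, and control replicate 3 has the highest median of the 9 arrays (0.19).

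The members spread more between replicates than most probe sets. The median SD within a group was 0.24 for control, 0.17 for dark and 0.23 for high light, against 0.13, 0.12 and 0.13 over all probe sets. The comparison was not matched for signal level, and the members were chosen on the same values. A dark array was the lowest of the 6 other arrays in 46 members, and that share over all probe sets was not counted. The gap between that lowest array and the highest high light array was under 0.1 in 16 members and 0.3 or more in 11.

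**Figure D5:**
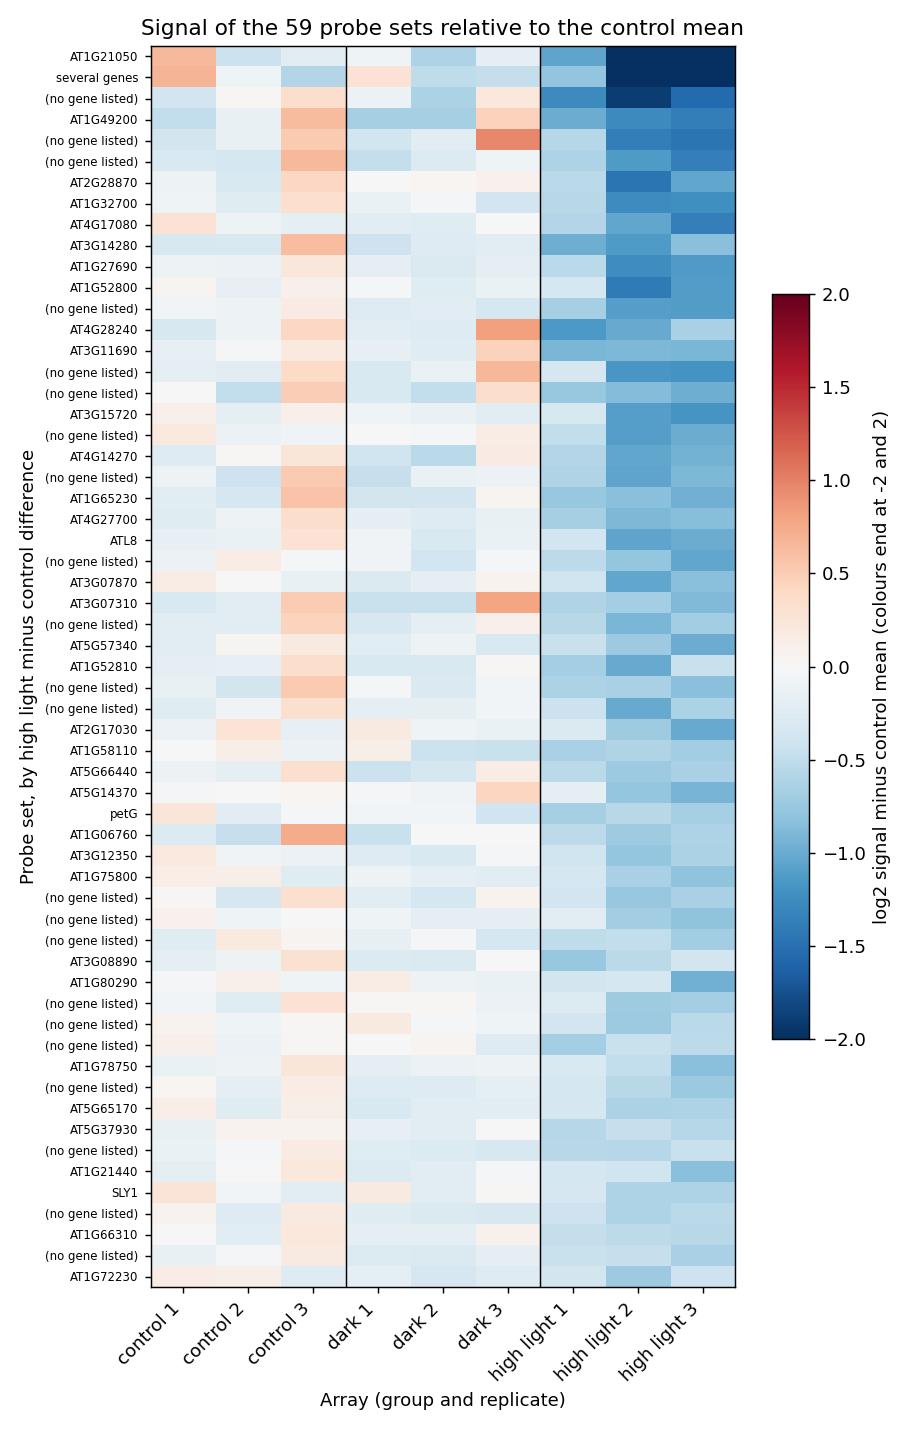
Log2 signal minus the control mean for each of the 59 members (rows, ordered by the high light minus control difference) on the 9 arrays (columns), from blue (lower) to red (higher). The high light columns are blue throughout, with replicate 1 paler than replicates 2 and 3 in most rows, and control replicate 3 and dark replicate 3 hold most of the red cells.

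At an adjusted p under 0.05, limma called 3 of the 59 members lower in high light than in control, where 0.0615% of all probe sets were called lower. These 3 probe sets, 247696_at, 259750_at and 256772_at, have no gene listed and were looked up after their values were seen. Probe set 247696_at had signals of 6.25, 6.66 and 6.99 in control, 6.52, 6.0 and 6.84 in dark, and 5.36, 4.74 and 5.07 in high light. In 256772_at dark minus control was -0.28 and high light minus dark -0.25, so its dark mean lay nearer to high light. Of the 36 members with 1 gene limma called 0, and 34 had an unadjusted p under 0.05 in the contrast that chose them, where 8.79% of all probe sets did in either direction. In a fit with the replicate block, since same-numbered arrays of these groups deviate together, limma called 18 members, 12 of them with 1 gene, against 0.312% of all probe sets. The 12 include AT1G21050, AT4G17080, AT3G14280, AT1G27690, AT4G28240, AT3G11690, AT4G27700, AT5G37930 and SLY1.

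Against dark, limma called 1 member lower in high light, where 0.0132% of all probe sets were called lower. That probe set, 265951_at, has no gene listed and had a difference of -0.90 from dark. With the block the count was 9 members, against 0.123%, among them AT1G21050, AT4G28240, AT3G11690, AT1G52810 and SLY1. Between dark and control limma called 0 members and 0% of all probe sets lower, and 3 members had an unadjusted p under 0.05, against 2.77% of all probe sets in either direction. Since the choice of the members used these same contrasts, their counts say nothing beyond that choice.

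Values close to the limits of the rule show how the members were cut. Just inside the limit of 0.5 lay AT1G72230 (-0.50) and AT1G66310 (-0.52), and just outside it lay AT1G22700 (-0.498) and AT5G25520 (-0.496). AT3G14280, AT1G21050 and AT1G49200 were closest to the dark limit, with dark minus control differences of -0.30, -0.30 and -0.29, and AT5G25630 lay outside at -0.33. AT1G24440, a gene with a difference of -1.14, was left outside because the gap between the lowest other array and the highest high light array was -0.0095. If the dark limit were dropped, 86 probe sets would meet the rule, and the 27 added all had a dark mean at least 0.3 below control. With the sign turned, so that all 3 high light values lay above the 6 others, the same limits held 216 probe sets, and with darkness in the place of high light as the low group they held 21.

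Regulators from 12 lists of light, clock and hormone genes had few named probe sets, with 10 genes measured in 4 lists. None of the 10 was a member, and limma called 0 in high light against control, with 0 at an unadjusted p under 0.05. The 7 measured Aux/IAA genes, repressors of auxin signalling, had a median difference of 0.04, and IAA30 had the widest at 0.88 (SE 0.50), which was 0.26 without high light replicate 1. ARR15, a response regulator of cytokinin signalling, had 0.09 (SE 0.12), TCP15 -0.14 (SE 0.31) and HYH, a bZIP factor of light signalling, 0.10 (SE 0.08). Control means of IAA20, IAA31, IAA33, ARR15 and HYH were 3.6 to 3.79, below the lower quartile of the arrays (4.05 to 4.12). That of IAA29 was 4.24. So near the floor of the scale, a fall could hardly show in these genes.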

How the data were processed

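The authors deposited log2 values. Per the submitters' processing notes they used RMA and affy, for which no version is listed. RMA corrects background, equalises quantiles between arrays and summarises probes by medians, so a shift of most transcripts one way would be hidden. The sources used here do not state the base of the logarithm, and base 2 was inferred from the range of values. In 46.1% of probe sets, and in 10 of the 59 members, some pair of arrays had equal values (within 0.000001). The 64 control probe sets were used for RNA quality alone, and 22746 were tested. No probe set was tested against background, and the number of arrays limits the precision.

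Gene names came from the platform annotation, which gives 13513 probe sets a single gene, 503 several and the other 8730 none, updated through the RefSeq gene table (13436 matched). Limma 3.58.1 in R 4.3.3 fitted a mean per group over all 9 arrays, with 6 residual and 2.55 prior degrees of freedom, and Benjamini-Hochberg adjustment within each comparison. The SE of each difference comes from this fit, which was tested on simulated data. The simulated arrays were independent of each other, so that test does not cover same-numbered arrays that deviate together. Same-numbered high light and control arrays deviated together from their group means in 3 of 3 pairs (correlations 0.261 to 0.515). Their numbers were therefore taken to pair them in the fit with the replicate block. The main fit, with the SEs and adjusted p printed beside genes, leaves this pairing out. High light and dark arrays did so in 2 of 3 pairs (-0.0336 to 0.485), and dark and control arrays in 2 of 3 (0.0124 to 0.632).

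Every member with 1 gene could be named, with the probe sets nearest each limit. The members, lists and tests were chosen with earlier results of these data known. Groups planned from words in gene descriptions were searched in symbols and synonyms, since the gene table holds no descriptions, and matched 0 members. Members were grouped by known protein family after they were seen, and the share of each family among all probe sets was not counted. Promoter motifs were not analysed here. Alternatives covered median centring, renewed quantile normalisation, low-signal and shared-probe filters, other limits of the rule, trend and robust estimation, array weights, the replicate block and each array left out.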

Additional observations from a re-analysis of the deposited data

How the results depend on the processing

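The number of members stayed within 1.5 times of 59 after median centring (53, of which 51 shared), renewed quantile normalisation (63, of which 54 shared), both filters, a high light limit of 0.6 (40) and dark limits of 0.2 (40) and 0.4 (72). It was 100 at a high light limit of 0.4, and 58 to 462 with 1 array left out, where 462 came without high light replicate 1. With the replicate block, taking each number's mean off before the rule, 130 probe sets met it, all 59 members among them. Without control replicate 3, 37 of the 59 still met the rule, the fewest of any array. Limma's count in high light against control was 114, 302 with the replicate block, 387 with array weights, and 43 to 575 with 1 array left out. It moved by over 1.5 times without control replicate 1 (64) or 3 (61) and high light replicate 1 (575), 2 (43) or 3 (58). In high light against dark it was 204, 430 with the replicate block, 642 with array weights, and 76 to 675 with 1 array left out, moving as far without dark replicate 1 (90) or 2 (85) and high light replicate 1 (675), 2 (76) or 3 (84). Between dark and control it was 0 (629 at an unadjusted p under 0.05), also with the block and without any 1 array, and 5 with array weights. The causes were not tested. The members' median difference of -0.71 ranged from -0.82 to -0.63 with 1 control or high light array left out. For the 36 named genes, all 288 recomputed differences kept their sign and moved by less than the SD between replicates. With 1 array left out neither could turn out otherwise, so this is no sign of stability. The rule puts every high light value below every control value, and 1 of 3 arrays cannot move a mean by that SD. High light replicate 1 was highest in 44 members after median centring and in 43 after quantile normalisation, both alternatives chosen after seeing the data.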

Other observations

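Without high light replicate 1, 405 more probe sets met the rule, 225 of them with 1 gene. Their median difference from the control mean on replicates 2 and 3, which chose them, was -0.62, against -0.82 for the members on the same arrays. The genes below come from the 12 with the lowest values there, ranked after their values were seen. AT3G45210 had 8.95, 8.38 and 9.02 in control and 8.55, 6.59 and 6.65 in high light, for replicates 1, 2 and 3. HAT2, a homeodomain-leucine zipper factor of auxin responses, had 7.96, 7.93 and 8.67 in control and 8.24, 6.40 and 6.10 in high light, so replicate 1 lay within the control range. SIM (SIAMESE), an inhibitor of cyclin-dependent kinases that limits cell division in trichomes, had 6.91, 6.63 and 6.83 in control and 6.78, 5.53 and 5.52 in high light. AT1G08180, which encodes a SIAMESE-related protein, had 6.09, 6.04 and 6.53 in control and 6.21, 5.15 and 4.81 in high light. AT1G68360, a zinc finger gene, had 9.69, 9.69 and 10.18 in control and 9.70, 8.52 and 8.41 in high light. In 349 of the 405, high light replicate 1 lay within the range of the 6 control and dark arrays, and in 184 it lay above the control mean.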
